A study of Bos taurus with 9 samples.

Results

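Aminoacyl-tRNA synthetases are the enzymes that attach each amino acid to its transfer RNA, and their genes were followed here in cultured bovine endometrial cells (BEND). A gene was taken as a member when its symbol was an amino acid letter followed by ARS, with or without a final 1, 2, A or B. This rule found 36 of the 17162 genes in the table, and 35 of them are described here, all of which passed the filter on low values. The 35 members were 19 genes for cytosolic enzymes and 16 genes, with symbols ending in 2, for mitochondrial enzymes. The synthetase genes EPRS and TARSL2 were measured too but have symbols that the rule does not take, and they are described with the other tRNA charging genes.

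The cells were wild type and grown from bovine endometrium, and 3 libraries were sequenced from each of 3 groups. CON cells received no hormone. GA cells were treated with 1 nM estradiol (E2) and 100 nM progesterone (P4) for 12 h. GB cells received the same hormones for 12 h and then 100 ng/mL interferon tau (IFNT), the type I interferon made by the ruminant conceptus, for a further 12 h. When CON and GA cells were harvested relative to GB cells is not given in the sources used here, so IFNT and time in culture cannot be told apart in the comparisons with GB. Nor is it given whether replicates came from separate animals, so the p-values measure only the spread between these libraries. Levels are given in the authors' FPKM, a count of fragments divided by exon length and by the mapped reads of the library, and FPKM summed to between 1395622 and 1442723 per library with 14452 to 14893 genes above 0. The table holds FPKM and no read counts, so no counting interval is attached to a value.

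The labels call the cells epithelial. The study checked its cultures by immunofluorescence for the cytokeratin encoded by KRT18 and reports cytokeratin as positive, a protein measure that is not analysed here. The mRNA levels of the marker genes went against the label. All 10 epithelial markers had a mean FPKM under 0.5, the highest mean was 0.361 for KRT18, and their sum was 0.69 to 2.14 per library. All 9 stromal fibroblast markers were present, led by VIM with a mean FPKM of 8539. Their summed FPKM was 16786 to 17378 in CON and 16978 to 17372 in GA but 15233 to 15346 in GB, so GB was lower than both other groups. At an adjusted p under 0.05 by limma, 1 of these 9 genes rose and 4 fell in GB vs. CON, beside 33.5% of all tested genes changed. When GB was set against GA, 1 rose and 5 fell, beside 29.0%, and the fall of VIM among them was lost with median-of-ratios factors (log2FC -0.097, adjusted p = 0.198), with no filter (adjusted p = 0.0893) and without GA replicate 1 (adjusted p = 0.0506). The fall of LUM was lost with median-of-ratios factors, with no variance trend and without GA replicate 2 or GB replicate 1 or 2, and that of DCN with quantile normalization and without GA replicate 3 or GB replicate 1. In GA vs. CON 2 rose and 1 fell, beside 0.453%. Of 5 endothelial markers CDH5 alone reached a mean FPKM of 0.5, at 1.46, and the endothelial sum was 1.57 to 3.44 per library. CDH5 rose by 0.68 in GB vs. GA (adjusted p = 0.0395), a call lost without any 1 of the GA replicates or GB replicate 1 or 3 (adjusted p 0.0565 to 0.133), and had a log2FC of 0.34 (adjusted p = 0.253) in GB vs. CON. KDR, too scarce to be tested, had 0.25 to 0.60 FPKM in GB and at most 0.11 FPKM in the other libraries. Of 5 immune cell markers 2 reached a mean FPKM of 0.5, CD14 at 20.2 and CD68, and the immune sum was 21.4 to 27.3 per library. The part of these markers in the results below was not tested, and in bulk RNA fewer cells of a type cannot be told apart from less RNA per cell.

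A tRNA that carries its amino acid is handed to the ribosome by an elongation factor, so these enzymes set which amino acid is read from each codon. Most animal cells use separate nuclear genes for the enzyme of the cytosol and that of the mitochondrion, while GARS and KARS are known to supply both. The enzymes fall into class I and class II by the fold of the catalytic domain, and several cytosolic enzymes are held in a multi-synthetase complex with the scaffold proteins AIMP1, AIMP2 and EEF1E1. WARS, the cytosolic tryptophanyl enzyme, is known as an interferon-inducible gene, and several synthetases are known to have roles outside translation.

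In untreated cells the synthetase mRNAs were abundant for the cytosolic enzymes and lower for most mitochondrial ones. Cytosolic members ran from a mean of 39.7 FPKM for LARS, the leucyl enzyme, to 238 FPKM for WARS, with a median of 106 FPKM. Mitochondrial members ran from 3.74 FPKM for MARS2, the methionyl enzyme, to 90.8 FPKM for IARS2, the isoleucyl enzyme, with a median of 13.9 FPKM. FPKM is a level per length, so these levels can be set side by side. Of the 13 amino acids for which a single cytosolic gene was paired here with a mitochondrial gene (phenylalanine, with FARSA and FARSB for the 2 cytosolic subunits, was not paired with FARS2), isoleucine was the exception in which the mitochondrial mRNA was the more abundant, with a mean log2 ratio of IARS to IARS2 of -0.90 in CON and -0.43 in GB. The median coefficient of variation between CON libraries was 3.68% for cytosolic and 6.14% for mitochondrial members. The highest was 9.20% (TARS) among the cytosolic and 18.6% (PARS2) among the mitochondrial members. The plot of levels by library shows the points of a gene close together for most members.

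**Figure D1:**
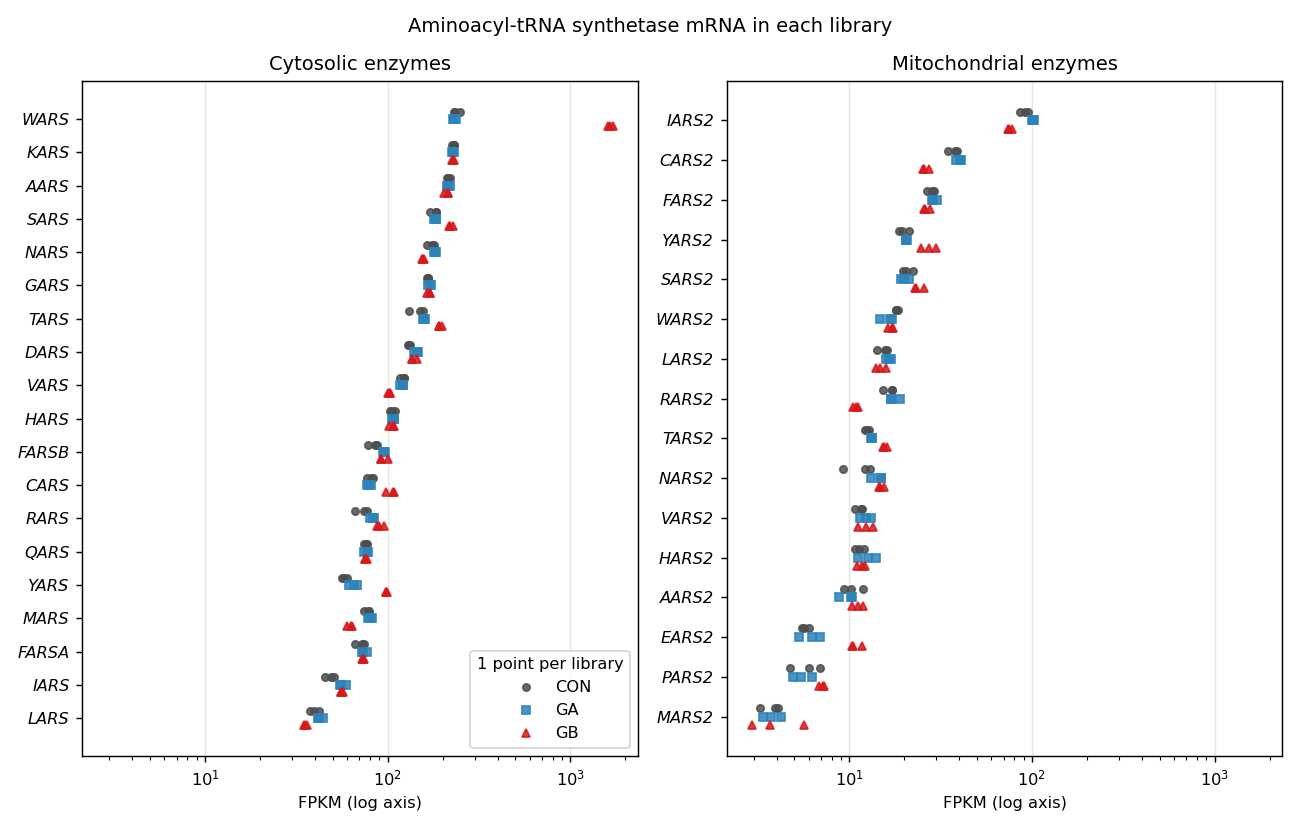
FPKM of each of the 35 synthetase genes (rows, x axis logarithmic), with 1 point per library for CON, GA and GB. The genes are ordered by their mean over all libraries. The 3 GB points of WARS lie at 1609 to 1711 FPKM, apart from its CON and GA points at 228 to 248 FPKM.

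WARS was about 7 times as abundant in GB cells as in the other groups, and no other member changed by as much as 1 log2 unit. In CON the 3 libraries had 231.99, 247.82 and 233.47 FPKM of WARS. In GA they had 227.76, 230.01 and 236.74 FPKM, and in GB 1711.31, 1643.58 and 1609.45 FPKM. Every GB library was therefore far above every CON and GA library, and CON and GA overlapped. The means were 238 ± 8.74, 232 ± 4.67 and 1655 ± 51.8 FPKM (SD, n = 3 each).

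The ratio of means was 6.96 for GB vs. CON, with single pairs of libraries between 6.49 and 7.38, and 7.15 for GB vs. GA, with pairs between 6.80 and 7.51. On the log2(FPKM + 0.5) scale, on which all fold changes below are given and which understates the change of low genes, WARS rose by 2.80 (SE 0.04, adjusted p = 1.42e-10 by limma, Benjamini-Hochberg over 12578 genes) against CON. Against GA it rose by 2.83 (adjusted p = 1.12e-10). In GA vs. CON its log2FC was -0.04 (adjusted p = 0.641). Both comparisons with GB share the 3 GB libraries, so they are not separate evidence.

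A gene was called differentially expressed (DEG) when its |log2FC| was above 1 and its adjusted p under 0.05. Of the tested genes 4.01% were DEGs in GB vs. CON (2.94% higher and 1.07% lower). In GB vs. GA the share was 3.64%, with 2.66% higher and 0.978% lower. WARS was the single DEG among the 35 members in both. By log2FC, WARS was exceeded by 107 of the 370 genes called higher against CON and by 103 of the 335 called higher against GA. By FPKM gained it stood near the top, with a gain of 1417 FPKM over CON and 1423 FPKM over GA that 9 tested genes exceeded in each comparison. Among all genes of a library WARS ranked between 869 and 987 by FPKM in CON, between 1004 and 1012 in GA and between 131 and 141 in GB.

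Set against the other members, WARS went from a level shared with KARS, the lysyl enzyme, to a level of its own. In CON its FPKM was 1.00 to 1.11 times that of KARS in the same library, which was the next most abundant member, and in GA 1.01 to 1.03 times. In GB the ratio to the next most abundant member was 7.03 to 7.38. WARS held 10.3% ± 0.539 of the summed FPKM of the 19 cytosolic genes in CON, 9.69% ± 0.146 in GA and 42.7% ± 0.769 in GB (SD, n = 3).

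The other 18 cytosolic genes summed to 2073 ± 51.5 FPKM in CON, 2158 ± 8.46 FPKM in GA and 2217 ± 15.9 FPKM in GB, and the 16 mitochondrial genes to 319 ± 7.63, 339 ± 7.92 and 309.9 ± 3.04 FPKM. The bars of summed FPKM show that the taller GB columns come mainly from the WARS portion. The other 18 genes also summed higher in every GB library (2204 to 2235 FPKM) than in CON (2024 to 2127 FPKM) and GA (2151 to 2167 FPKM). WARS2, which charges tryptophan tRNA in mitochondria, had 18.49, 18.10 and 18.11 FPKM in CON, 16.75, 14.67 and 17.13 FPKM in GA and 16.36, 17.46 and 17.10 FPKM in GB. GB thus overlapped GA and lay below CON for WARS2, with a log2FC of -0.10 against CON (adjusted p = 0.293) and of 0.07 against GA (adjusted p = 0.492). The FPKM ratio of WARS to WARS2 ranged from 12.5 to 13.7 in CON and 13.6 to 15.7 in GA, and from 94.1 to 104.6 in GB.

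**Figure D2:**
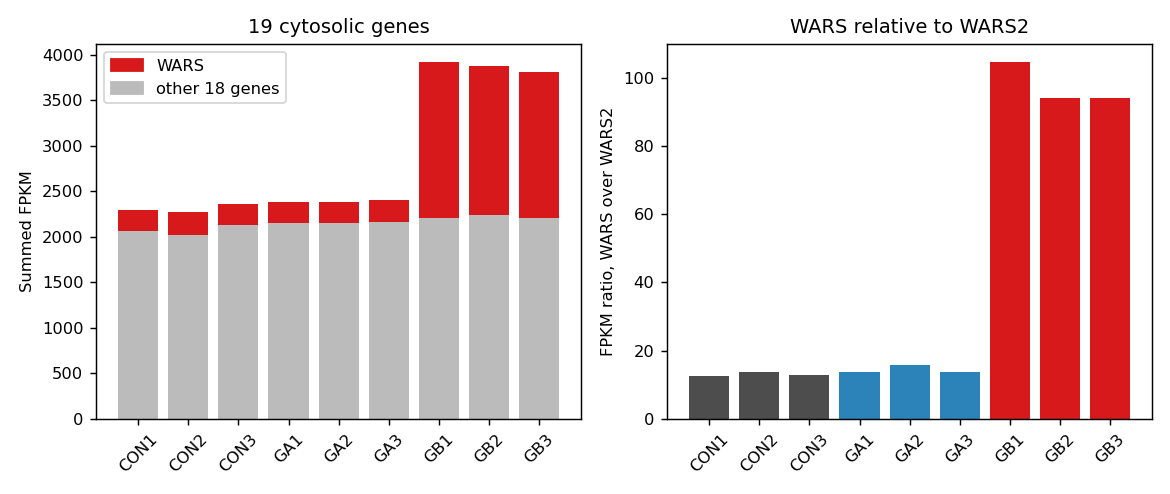
Left, summed FPKM of the 19 cytosolic genes in each library, split into WARS and the other 18 genes. Right, FPKM of WARS divided by that of WARS2 in each library, which is 12.5 to 15.7 in CON and GA and at least 94.1 in GB.

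Below the fold threshold many members moved by small amounts in both directions. At an adjusted p under 0.05 with no fold threshold, 33.5% of all tested genes changed in GB vs. CON, 16.2% higher and 17.3% lower. Of the 35 members 19 changed (54.3%), 12 higher and 7 lower. In GB vs. GA 29.0% of tested genes changed, 9.87% higher and 19.2% lower, against 16 members (45.7%), 9 higher and 7 lower. Small changes are easier to detect in abundant genes, and among those whose mean FPKM was 10 or more the share was 39.5% of all genes and 56.25% of 32 members for GB vs. CON, and 34.2% and 46.9% for GB vs. GA. Without WARS the largest |log2FC| of a member was 0.87 against CON and 0.77 against GA, both of EARS2.

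The cytosolic enzymes did not move as a block. Of the 18 without WARS, 7 rose and 4 fell in GB vs. CON, and 4 rose and 4 fell in GB vs. GA, which is 61.1% and 44.4% beside 33.5% and 29.0% of all tested genes. Among tested genes with a mean FPKM of 10 or more, which all 18 have, the shares were 39.5% and 34.2%. The median log2FC of the 18 members was 0.03 and -0.01, beside -0.02 and -0.08 over all tested genes. The sign of the members' medians turned with quantile normalization in the first comparison and with TPM rescaling or median-of-ratios factors in the second.

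YARS, the tyrosyl enzyme and a class I enzyme like WARS, showed the next largest rise of a cytosolic member. It had 57.79, 56.39 and 60.13 FPKM in CON, 61.30, 67.67 and 65.57 FPKM in GA and 99.06, 98.21 and 97.64 FPKM in GB. All GB libraries were above all others, and the log2FC was 0.75 (SE 0.05, adjusted p = 3.46e-06, limma) against CON and 0.60 (adjusted p = 2.03e-05) against GA.

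TARS, the threonyl enzyme, had 150.31, 130.70 and 156.34 FPKM in CON, 160.64, 155.84 and 158.56 FPKM in GA and 192.15, 197.91 and 191.98 FPKM in GB. It rose by 0.42 against CON and 0.29 against GA on the log2 scale. CARS, the cysteinyl enzyme, rose by 0.37 and 0.39, and SARS, the seryl enzyme, by 0.30 and 0.28. For these 3 genes every GB library was above every CON and GA library.

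The rises of RARS, IARS and FARSB passed in GB vs. CON, and none of these genes passed in GB vs. GA. The difference between the comparisons was not tested. The GA libraries of RARS, the arginyl enzyme, lay at 80.47 to 83.76 FPKM, between CON at 66.42 to 77.50 FPKM and GB at 86.94 to 95.54 FPKM, and its log2FC was 0.32 against CON and 0.14 (adjusted p = 0.14) against GA. For IARS the log2FC was 0.21 and -0.02, and for FARSB, a subunit of the phenylalanyl enzyme, 0.18 and -0.01. For IARS the GA libraries overlapped GB, at 55.00 to 59.21 FPKM of IARS in GA against 55.46 to 56.86 FPKM in GB. In GA vs. CON none of the 3 passed, with an adjusted p of 0.172 for RARS, 0.0903 for IARS and 0.129 for FARSB. FARSB no longer passed in GB vs. CON without CON replicate 2 (adjusted p = 0.0646) or GB replicate 2 (adjusted p = 0.104).

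MARS, VARS, LARS and NARS fell in both comparisons with GB. MARS, the cytosolic methionyl enzyme, had 73.79, 79.13 and 78.36 FPKM in CON, 82.31, 77.96 and 80.25 FPKM in GA and 63.58, 60.13 and 63.26 FPKM in GB. This was the largest fall of a cytosolic member, by 0.30 against CON and 0.36 against GA on the log2 scale. The log2FC of VARS, the valyl enzyme, was -0.24 and -0.23, that of LARS -0.16 and -0.27, and that of NARS, the asparaginyl enzyme, -0.15 and -0.22, which became -0.23 with quantile normalization in the first comparison and -0.15 with median-of-ratios factors in the second. The LARS call in GB vs. CON was lost (adjusted p 0.0538 to 0.130) when any library other than CON replicate 2 was left out. The NARS call was lost (adjusted p 0.0558 to 0.0665) without CON replicate 1 or 3 or GB replicate 2 or 3.

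The remaining 7 cytosolic genes passed the test in neither comparison. They are KARS, AARS, GARS, QARS, HARS, FARSA and DARS, the lysyl, alanyl, glycyl, glutaminyl, histidyl, phenylalanyl and aspartyl enzymes (FARSA encodes the other phenylalanyl subunit). KARS had 224.16 to 231.90 FPKM in CON and 224.34 to 231.86 FPKM in GB, and AARS had 210.85 to 219.07 and 204.16 to 215.01 FPKM. The log2FC of the 7 genes lay between -0.02 (AARS) and 0.09 (DARS, adjusted p = 0.156) in GB vs. CON.

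The cytosolic members can also be grouped by structural class and by place in the multi-synthetase complex. Of 8 class I genes without WARS, 4 rose and 3 fell in GB vs. CON, and of 10 class II genes 3 rose and 1 fell. In GB vs. GA the counts were 2 and 3 for class I and 2 and 1 for class II. Of the 7 members whose enzymes sit in the complex, IARS and RARS rose while MARS and LARS fell in GB vs. CON, and MARS and LARS fell in GB vs. GA with no riser. Of the 11 cytosolic genes outside the complex, again without WARS, 5 rose and 2 fell in GB vs. CON, and 4 rose and 2 fell in GB vs. GA. By class, the share called in GB vs. CON was 87.5% for class I and 40% for class II, and in GB vs. GA 62.5% and 30%. Inside the complex it was 57.1% and 28.6% in these comparisons, and outside it 63.6% and 54.5%, all beside 33.5% and 29.0% of all tested genes. Among tested genes with a mean FPKM of 10 or more, which all cytosolic members have, the shares were 39.5% and 34.2%. These counts are a description and the difference between these groups was not tested.

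**Figure D3:**
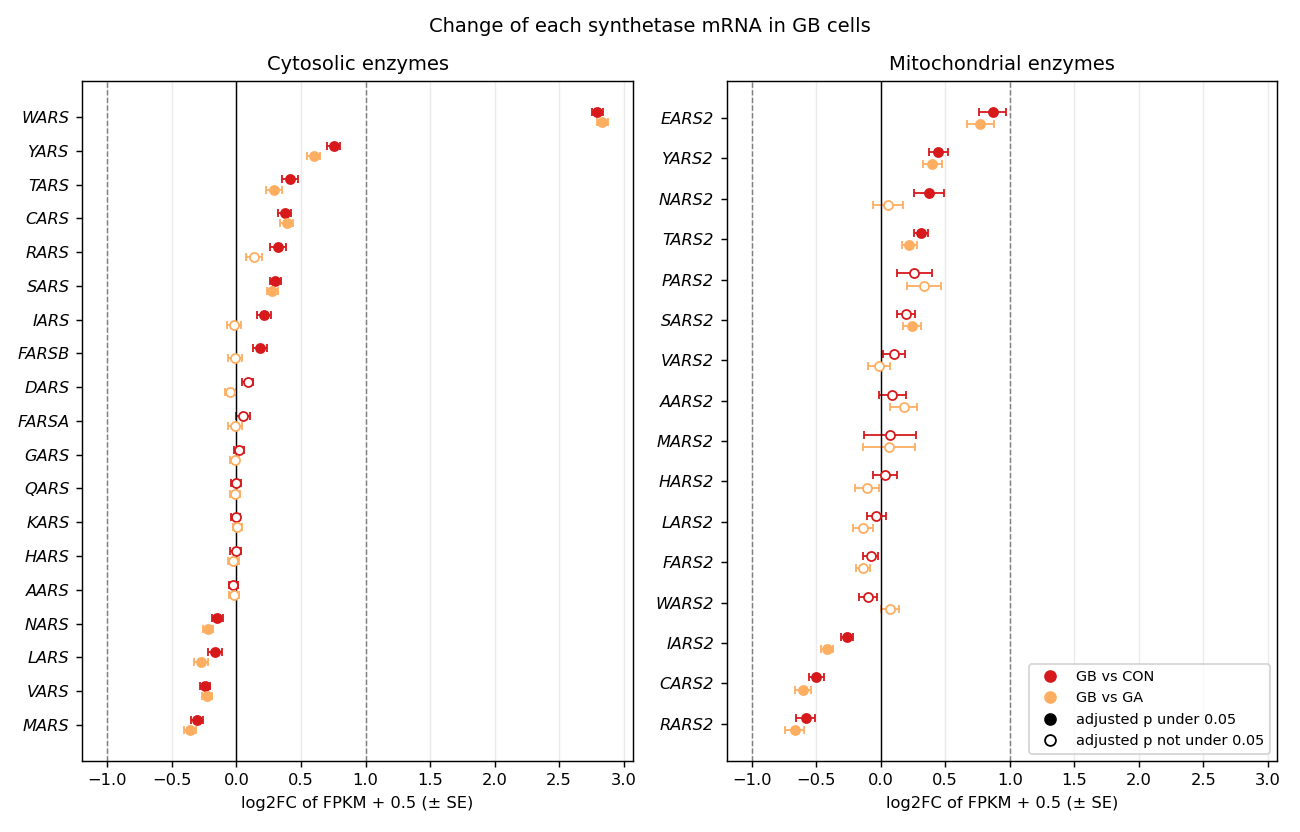
log2 fold change (x axis, FPKM + 0.5, bars ± SE of the limma fit) of each synthetase gene in GB cells against CON and against GA, filled where the adjusted p is under 0.05, with dashed lines at the fold threshold. WARS lies at 2.80 and 2.83 beyond the dashed line and all other genes lie between -0.67 and 0.87.

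The mitochondrial enzymes also went both ways. Of 16 genes 4 rose and 3 fell in each comparison with GB (43.75%, beside 33.5% of all tested genes against CON and 29.0% against GA). Their median log2FC was 0.08 and 0.06, beside -0.02 and -0.08 over all tested genes, and over the alternatives the first value was between 0.0351 and 0.110 and the second between 0.00046 and 0.127.

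EARS2, the mitochondrial glutamyl enzyme, rose most. It had 6.02, 5.48 and 5.68 FPKM in CON, 5.30, 6.28 and 6.96 FPKM in GA and 10.51, 11.71 and 10.36 FPKM in GB. GB did not overlap the other groups, and the log2FC was 0.87 (SE 0.10, adjusted p = 0.000262, limma) against CON and 0.77 (adjusted p = 0.00063) against GA. YARS2, the tyrosyl enzyme of mitochondria, rose by 0.45 and 0.40, from 18.76 to 21.32 FPKM over CON and GA libraries to 24.82 to 29.75 FPKM in GB.

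TARS2 rose by 0.31 and 0.22. In GB vs. GA its call was lost without GA replicate 2 (adjusted p = 0.0527) or GB replicate 3 (adjusted p = 0.0561). NARS2 had 9.24 to 13.06 FPKM in CON, 13.22 to 14.96 FPKM in GA and 14.47 to 15.44 FPKM in GB, so that GA and GB overlapped. It rose by 0.38 in GB vs. CON, by 0.23 with CON replicate 2, its lowest library, left out (adjusted p = 0.0553), and its call was also lost without any 1 of the GB replicates (adjusted p 0.0653 to 0.0952). SARS2, the seryl enzyme of mitochondria, rose by 0.24 in GB vs. GA (adjusted p = 0.0306) and had a log2FC of 0.20 in GB vs. CON (adjusted p = 0.0596). The first call was lost without GA replicate 1 or 2 or GB replicate 1 or 3 (adjusted p 0.0572 to 0.105).

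RARS2, CARS2 and IARS2 fell in both comparisons. RARS2, the arginyl enzyme, had 17.17, 15.29 and 17.09 FPKM in CON, 18.86, 16.92 and 16.87 FPKM in GA and 10.46, 10.91 and 11.20 FPKM in GB. It fell by 0.58 and 0.67 on the log2 scale, the largest fall of any member, with no overlap between GB and the other groups. CARS2, the cysteinyl enzyme, went from 34.84 to 38.72 FPKM in CON and 38.32 to 41.00 FPKM in GA to 25.42 to 27.48 FPKM in GB, a log2FC of -0.50 and -0.60. IARS2, the most abundant mitochondrial member, had 86.29 to 94.70 FPKM in CON, 100.42 to 102.37 FPKM in GA and 74.42 to 77.82 FPKM in GB, a log2FC of -0.26 and -0.42.

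The remaining mitochondrial genes AARS2, FARS2, HARS2, LARS2, MARS2, PARS2, VARS2 and WARS2 passed in neither comparison. MARS2 was the least precise, at 3.69, 2.93 and 5.65 FPKM in the GB libraries. HARS and HARS2 are similar in sequence and stand next to each other in the genome, and reads that fit both genes were divided by estimate, so their separate levels are uncertain.

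For the 13 paired amino acids the genes of both compartments could be set against each other, which asks whether the cytosolic and the mitochondrial enzyme moved together. In GB vs. CON both genes rose for tyrosine and threonine. The genes moved in opposite directions for arginine, isoleucine and cysteine, with the cytosolic gene higher, and for asparagine, with the cytosolic gene lower. The cytosolic gene alone passed for 5 amino acids and neither gene for 2. In GB vs. GA both rose for tyrosine, threonine and serine, cysteine was the single opposite pair, the cytosolic gene alone passed for 5, the mitochondrial gene alone for 2 and neither for 2. No pair had both genes lower in either comparison.

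The log2 ratio of RARS to RARS2 was 2.10 ± 0.04 in CON, 2.2 ± 0.07 in GA and 3.01 ± 0.03 in GB (SD, n = 3). That of CARS to CARS2 was 1.10 ± 0.11, 0.98 ± 0.03 and 1.97 ± 0.07. Both pairs shifted by 0.80 or more on the log2 scale with no overlap between GB and the other groups, and the shift of WARS over WARS2 was 2.90 against CON and 2.77 against GA. The ratio of IARS to IARS2 shifted by 0.47 and 0.40, and that of NARS to NARS2 moved the other way, by -0.52 and -0.28. With 3 libraries against 3 the exact two-sided permutation test cannot go below p = 0.1, which these 5 pairs reached in both comparisons, those of tyrosine and valine against CON alone and that of threonine against GA alone (0.186 against CON and 0.217 against GA after adjustment over 13 pairs), so no pair could be called by it.

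**Figure D4:**
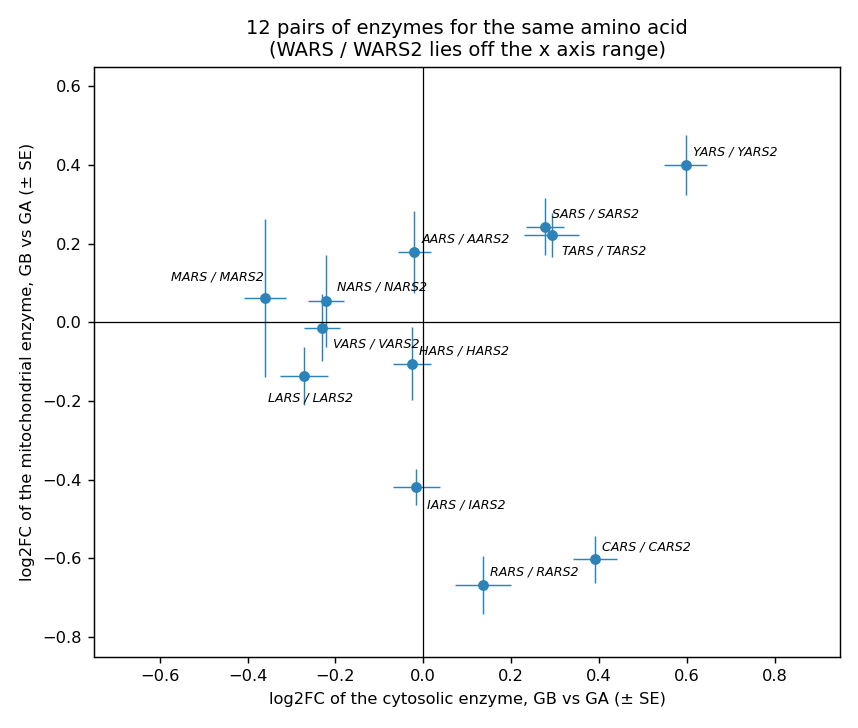
Each point is an amino acid with a cytosolic and a mitochondrial synthetase gene, placed by the log2 fold change of the cytosolic gene (x axis) and of the mitochondrial gene (y axis) in GB vs. GA, with bars ± SE. CARS with CARS2 lies at lower right (0.39 and -0.60), YARS with YARS2 at upper right (0.60 and 0.40), and WARS (2.83) is off the x axis.

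The hormones alone left the synthetase genes without a call. In GA vs. CON 0.0716% of tested genes were DEGs and 0.453% passed an adjusted p under 0.05 (0.246% higher and 0.207% lower), and of the 35 members 0 passed by limma, with 8 (22.9%) at an unadjusted p under 0.05, beside 19.3% of all tested genes, and the lowest adjusted p at 0.0903 (IARS). With all libraries the widest log2FC was 0.32 for NARS2 (adjusted p = 0.194). This value leans on CON replicate 2, at 9.24 FPKM against 13.06 and 12.14 FPKM in the other CON libraries. The median log2FC was 0.06 for cytosolic members without WARS and 0.09 for mitochondrial members, against 0.06 for all tested genes, and the cytosolic median was -0.00078 with median-of-ratios factors.

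The mRNAs of the scaffold proteins and of EPRS changed by less than 0.25 log2 units in GB vs. CON. EPRS, the enzyme for glutamate and proline that also sits in the complex, had 79.28 to 88.74 FPKM in CON and 86.81 to 88.36 FPKM in GB (log2FC 0.04, adjusted p = 0.508). AIMP2 and EEF1E1 had log2FC of 0.01 and 0.06 in GB vs. CON, and AIMP1 rose by 0.22 (adjusted p = 0.0406). The AIMP1 call was lost without any 1 of 7 libraries, all but CON replicate 1 and GB replicate 1 (adjusted p 0.0527 to 0.133).

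With these 4, 16 genes of the list of scaffold and further tRNA charging genes were measured, and 2 rose and 1 fell in GB vs. CON while 1 rose and 2 fell in GB vs. GA. These calls were 18.75% of the list in each comparison, beside 33.5% and 29.0% of all tested genes. QRSL1, a subunit of the mitochondrial enzyme that makes glutaminyl-tRNA from glutamyl-tRNA, rose by 0.33 and 0.35, from 17.02 to 20.45 FPKM over CON and GA libraries to 21.26 to 25.71 FPKM in GB. Its call was lost without CON replicate 1 or 2 or GB replicate 2 or 3 in the first comparison (adjusted p 0.0578 to 0.0991) and without GA replicate 2 or 3 or GB replicate 2 or 3 in the second (adjusted p 0.0614 to 0.0917). Its partner subunits GATB and GATC had log2FC of -0.01 and 0.08 in GB vs. CON and of 0.07 and -0.30 in GB vs. GA, with neither called. Every GB library of GATC was below every GA library (adjusted p = 0.0693, limma).

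TARSL2, a threonyl enzyme like TARS, was scarce at 1.28 to 1.37 FPKM in CON and 0.46 to 0.84 FPKM in GB, and fell by 0.72 against CON and by 0.54 against GA. The second call (adjusted p = 0.0475) was lost without any library other than GB replicate 3 (adjusted p 0.0593 to 0.138). AARSD1, which removes wrongly attached amino acids from alanine tRNA, fell by 0.16 in GB vs. GA, a call lost with median-of-ratios factors (log2FC -0.087, adjusted p = 0.192) and without GA replicate 1 or 2 or GB replicate 3 (adjusted p 0.0568 to 0.0783). PRORSD1, DTD1, DTD2, SEPSECS, PSTK, MTFMT and XPOT were called in neither. Their log2FC ran from -0.41 (PSTK) to 0.28 (DTD2) in GB vs. CON and from -0.31 (PSTK) to 0.54 (DTD2) in GB vs. GA. The first limits lean on CON replicate 1, where DTD2 had 6.32 FPKM against 13.36 and 12.91 FPKM in the other CON libraries. PSTK had 8.73 FPKM there, against 5.61 and 5.75 FPKM.

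Of 10 listed elongation factor genes, EEF1A2 was the single DEG in both comparisons with GB, beside 4.01% of all tested genes against CON and 3.64% against GA. At an adjusted p under 0.05 the list had 10% and 20% called, beside 33.5% and 29.0%. This second form of elongation factor 1 alpha had 13.79, 16.24 and 13.26 FPKM in CON, 9.32, 13.17 and 11.29 FPKM in GA and 5.10, 3.96 and 4.29 FPKM in GB, and fell by 1.59 (adjusted p = 2.94e-05, limma) and 1.24 (adjusted p = 0.000185). All GB libraries were below all others. The main form EEF1A1, at 10891 to 11686 FPKM over the 9 libraries, had a log2FC of -0.01 in GB vs. CON and was named after its values were seen. The only other call was a fall of EEF1B2 by 0.14 in GB vs. GA, named after its values were seen. It was lost with median-of-ratios factors (log2FC -0.061, adjusted p = 0.306) and without GA replicate 1 or 2 or GB replicate 1 or 2 (adjusted p 0.0516 to 0.0886).

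Genes for the supply and breakdown of tryptophan were measured in part, 12 of 18 listed genes being in the table and 8 tested. In GB vs. CON 2 rose and 2 fell (50% of the 8, beside 33.5% of all tested genes), and in GB vs. GA 1 rose (12.5%, beside 29.0%). SLC3A2, the heavy chain of the large neutral amino acid transporter, rose by 0.33 and 0.37, from 111.58 to 124.24 FPKM over CON and GA libraries to 147.68 to 152.68 FPKM. Its light chain SLC7A5 fell by 0.21 in GB vs. CON, with 51.61 to 53.65 FPKM in CON and 43.92 to 46.98 FPKM in GB, and had a log2FC of -0.08 in GB vs. GA. The other 2 calls in GB vs. CON, named after their values were seen, were a rise of KYAT3 by 0.45 and a fall of QPRT by 0.30, both enzymes of the kynurenine route. IDO1, the interferon-inducible enzyme that opens the tryptophan ring, was listed at 0 in 8 libraries and at 0.41 FPKM in GB replicate 2, and KYNU did not exceed 0.27 FPKM in any library.

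Many synthetase genes are known targets of ATF4, the transcription factor of the amino acid response, and the ATF4 list did not move in a single direction. All 34 genes were tested, and 11 rose and 6 fell in GB vs. CON (50%, beside 33.5% of all tested genes), while 8 rose and 8 fell in GB vs. GA (47.1%, beside 29.0%). Their median log2FC was -0.02 and 0.03, beside -0.02 and -0.08 over all tested genes. ATF4 itself had 274.98 to 314.11 FPKM in CON, 322.24 to 340.51 FPKM in GA and 327.90 to 337.98 FPKM in GB, a log2FC of 0.16 (adjusted p = 0.0425) and 0.02. The first ATF4 call was lost without any 1 of 7 libraries, all but CON replicate 3 and GA replicate 3 (adjusted p 0.0524 to 0.109), and without CON replicate 2 the log2FC was 0.10.

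The DEGs of the list went in opposite directions. ATF3, a stress-induced transcription factor, had 21.51 to 26.48 FPKM in CON, 19.70 to 29.40 FPKM in GA and 52.40 to 58.39 FPKM in GB, and rose by 1.19 and 1.22. SLC7A11, the cystine transporter, had 2.06 to 3.26 FPKM in CON, 2.12 to 2.82 FPKM in GA and 0.70 to 0.94 FPKM in GB, and fell by 1.26 and 1.16, the second value being -0.92 with a pseudocount of 1. ASNS, which makes asparagine, fell by 0.30 in GB vs. GA and had a log2FC of -0.14 (adjusted p = 0.131) in GB vs. CON. DDIT3, another stress-induced factor, was called in neither (log2FC 0.19 and 0.12). In GA vs. CON 1 gene of the list was called, CEBPB, named after its values were seen, which fell by 0.88 (adjusted p = 0.0392). That call was lost without any 1 of 7 libraries, all but GB replicates 2 and 3 (adjusted p 0.0654 to 0.155).

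**Figure D5:**
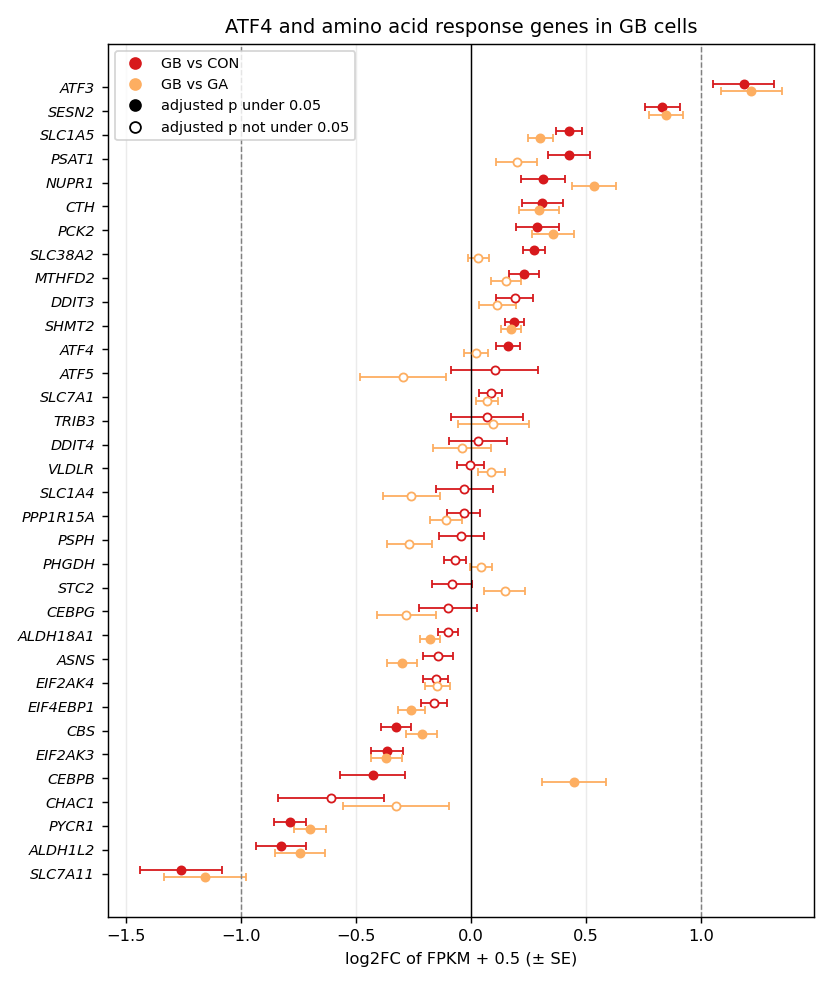
log2 fold change (x axis, FPKM + 0.5, bars ± SE) of the 34 genes of the ATF4 and amino acid response list in GB cells against CON and against GA, filled where the adjusted p is under 0.05. ATF3 lies beyond 1 and SLC7A11 beyond -1 in both comparisons, with most genes between.

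Interferon-stimulated genes place the rise of WARS on the scale of the interferon response. All 15 reference genes tested were DEGs higher in GB in both comparisons, beside 2.94% of all tested genes against CON and 2.66% against GA. Their median log2FC was 7.49 against CON and 7.41 against GA. MX2, ISG15 and RSAD2 rose by 10.39, 10.29 and 10.00 in GB vs. CON. Their CON levels were 0.05 to 0.09, 1.76 to 7.01 and 0.20 to 0.53 FPKM, so their rises began from little mRNA, and their size and order depend on the pseudocount. With a pseudocount of 1 the rises of MX2 and RSAD2 were 9.48 and 9.32, both below that of ISG15, and with one of 0.1 they were 12.19 and 10.97. WARS began from 231.99 FPKM or more and gained 2.80, which is closer to the smallest gain of these genes, 1.85 for STAT2.

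Of 8 factors that bind interferon-responsive promoters, 7 were DEGs higher in GB in both comparisons, beside 2.94% and 2.66% of all tested genes. The reference list also holds 3 of the 8 (STAT2, IRF1 and IRF9). In GB vs. CON, IRF7 rose by 2.59, IRF1 by 2.24 and IRF9 by 2.15. IRF8, at a mean of 0.691 FPKM over the libraries, is not tested with a filter at 1 FPKM, which leaves 6 DEGs, and its log2FC of 1.66 in GB vs. CON was 1.16 with a pseudocount of 1 and 2.76 with one of 0.1. STAT3, the exception and named after its values were seen, had a log2FC of 0.03 (adjusted p = 0.716). In GA vs. CON 0 genes of either list passed by limma, with 2 of the 15 reference genes and 0 of the 8 factors at an unadjusted p under 0.05, beside 19.3% of all tested genes.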

How the data were processed

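RNA-seq libraries of 9 BEND cultures (3 each of CON, GA and GB) were analysed. The deposited table gives FPKM, computed by the authors for every gene in each library and rounded to 2 decimals. The submitters' processing notes name fastp 0.21.0, Bowtie2 2.33, HISAT2 2.2.1, RSEM 1.3.3 and DESeq2 1.34.0 with build ARS-UCD1.2, and the paper's methods give read trimming, rRNA removal, alignment and RSEM quantification. Neither the annotation release nor the use of strand in counting is given in the sources used here. Reads that fit several genes are divided by estimate in RSEM, which affects similar genes.

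FPKM values were not rescaled and were transformed to log2(FPKM + 0.5). The 12578 of 17162 genes whose mean FPKM reached 0.5 were fitted with limma 3.58.1 in R 4.3.3, with 1 mean per group over the 9 libraries and a variance trend, and p-values were adjusted by Benjamini-Hochberg over all tested genes. Ratios of paired genes were compared with exact permutation tests in scipy 1.17.1, and figures drawn with matplotlib 3.10.9. The procedure was run on simulated data with changes larger than the fold threshold, which does not test its calls of smaller changes. DEG thresholds follow the study, whose count test was not run because the table holds FPKM. Sequences and promoter motifs were not analysed here. Gene order was read from RefSeq genes of ARS-UCD2.0, in which 34 of 35 members matched. A further member and a gene of the lists are not reported here, and counts of members and lists leave them out.

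The members and the 10 lists were chosen with earlier results of these data known. Genes of the lists are named when they are DEGs (up to 5 per list by size), together with the scaffold and tRNA charging list and SLC7A5, SLC3A2, IDO1, KYNU, ATF4, ASNS and DDIT3. Genes outside this rule are marked where they appear, and cell type markers are named to describe their lists. The alternatives were pseudocounts of 1 and 0.1, no filter and a filter at 1 FPKM, TPM rescaling, median-of-ratios factors, quantile normalization, no variance trend, the compared groups alone, leaving out each library in turn, and a replicate block.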

Additional observations from a re-analysis of the deposited data

How the results depend on the processing

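WARS was a DEG against both CON and GA under all 19 alternatives (log2FC 2.77 to 2.83 and 2.81 to 2.91) and in none for GA vs. CON. Members with an adjusted p under 0.05 numbered 15 to 19 against CON and 14 to 17 against GA, and 15 of 19 and 14 of 16 kept their call under every alternative. Single-gene values kept their direction and call in 2325 instances and lost the call in 219, and none reversed. The amino acid response list held 1 DEG in place of 2 in GB vs. GA with a pseudocount of 1, the scaffold list 1 in place of 0 in GB vs. CON with a pseudocount of 0.1, and the binding factor list 6 in place of 7 against CON and against GA with a filter at 1 FPKM. Besides the calls lost when a library was left out, fitting the compared groups alone ended those of FARSB, LARS, NARS, NARS2, AIMP1 and ATF4 in GB vs. CON and of TARSL2 in GB vs. GA. Quantile normalization ended those of FARSB, AIMP1 and QRSL1 against CON and of TARSL2, EEF1B2 and DCN against GA. Median-of-ratios factors ended those of LARS against CON and of TARSL2, AARSD1, EEF1B2, VIM and LUM against GA. No variance trend ended those of LARS, AIMP1 and ATF4 against CON, of EEF1B2 and LUM against GA and of CEBPB in all 3 comparisons. With no filter, those of NARS2, AIMP1 and ATF4 against CON, VIM against GA and CEBPB in all 3 comparisons were lost. TPM rescaling or a filter at 1 FPKM ended that of TARSL2 against GA. With median-of-ratios factors the median log2FC in GB vs. GA was 0.0604 for cytosolic members without WARS and 0.127 for mitochondrial members, and in GA vs. CON it was -0.00078 and 0.0282. With quantile normalization the cytosolic median was -0.0296 in GB vs. CON and 0.0077 in GA vs. CON, where the mitochondrial median was 0.0248, and WARS held 43.9% of the cytosolic FPKM in GB. The cause of these shifts was not tested.

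Replicates with the same number did not deviate together (correlations of -0.031 to 0.077, against -0.068 to 0.056 for different numbers), so the numbers were not taken as pairs. With the replicate block, 18 members passed against CON and 15 against GA, FARSB and SARS2 losing their calls (as did AIMP1, QRSL1 and TARSL2 of the scaffold list), and the WARS log2FC stayed at 2.80 and 2.83. Among the members the SE was largest for MARS2 (0.20), and FPKM are written to 2 decimals.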

Other observations

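The genes beside WARS did not share its rise. In the RefSeq gene order of ARS-UCD2.0 its neighbours are SLC25A47 and WDR25. SLC25A47, a mitochondrial carrier gene, did not exceed 0.26 FPKM in any library. WDR25 had 5.63 to 7.88 FPKM in CON and 4.99 to 8.35 FPKM in GB, a log2FC of -0.07 (adjusted p = 0.801, limma).

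Of 46 tested genes that stand next to a synthetase gene, 2 were DEGs higher in GB in both comparisons (4.35%, beside 2.94% of all tested genes against CON and 2.66% against GA), and both were named after their values were seen. BPNT1, a nucleotidase gene beside IARS2, had 17.15, 23.33 and 21.28 FPKM in CON, 21.46, 21.98 and 24.90 FPKM in GA and 119.80, 115.51 and 119.54 FPKM in GB. It rose by 2.50 (adjusted p = 1.17e-07) in GB vs. CON, while IARS2 fell by 0.26. CXCR4, a chemokine receptor gene beside DARS, had 1.70 to 1.88 FPKM in CON and 6.71 to 7.88 FPKM in GB, a rise of 1.74 (adjusted p = 0.000324), with DARS at a log2FC of 0.09.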
